A study of Mus musculus with 6 samples.

Results

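Voltage-gated sodium and calcium channel genes were examined in the embryonic mouse neocortex, the dorsal forebrain wall that becomes the layered cortex. Members were taken by symbol alone, as the pore-forming (alpha) and beta subunits of sodium channels and the alpha1, alpha2-delta and beta subunits of calcium channels, wherever the array held a probe set assigned to that gene only. This gave 28 genes of 19938 tested, made up of 8 sodium alpha, 3 sodium beta, 10 calcium alpha1, 4 calcium alpha2-delta and 3 calcium beta genes. Genes without such a probe set were not analysed here. The 3 mutant embryos were homozygous for a recombined floxed allele of Bcl11a (Bcl11aΔflox/Δflox), and the 3 control embryos were wild type (Bcl11a+/+), all at embryonic day 14.5. Each embryo gave 1 Affymetrix Mouse Gene ST array, prepared from its own RNA. Neither the Cre driver nor the recombined cell types are given in the sources used here. Bcl11a encodes a DNA-binding zinc finger protein that is made in projection neurons of the cortex.

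These channels turn membrane voltage into ion flow. A sodium channel alpha subunit forms a whole pore and carries the upstroke of the action potential, and beta subunits adjust its gating and its place in the membrane. Calcium channel alpha1 subunits fall into high-voltage-activated L, P/Q, N and R types and low-voltage-activated T types, while alpha2-delta and beta subunits bring the high-voltage-activated ones to the surface. In the embryonic cortex, where synapses are scarce, calcium entry through such channels accompanies neuronal migration and early network activity, and Scn3a is known as a sodium channel gene of immature neurons.

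The comparison asked which of these genes differ when Bcl11a is lost. No channel gene passed the threshold, an adjusted p under 0.05 in limma over all 19938 genes. The share of all genes that passed was 0.286%, and at so low a share most sets of 28 genes would hold none. At an unadjusted p under 0.05 there were 5 of the 28, which is 17.9%, where 6.05% of all genes reached it. These were Scn3a and Scn1a, with higher values in the mutants, and Cacna1g, Cacna1h and Cacna1d, with lower values. The array values of the genotypes were fully apart for 5 members, where 10.5% of all genes had such a gap. Of these 5, 3 were higher in the mutants (Scn1a, Scn3a and Cacnb1), where 7.69% of all genes were, and 2 were lower (Cacna1g and Cacna1h), where 2.85% of all genes were. The shares of so few members were not tested against those of all genes.

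Most members, like most genes, lay close to 0. Of the 28 log2 differences, all given as mutant minus control, 15 (53.6%) were positive and 18 were smaller than 0.1 in size. Over all 19938 genes, 60.3% were positive and 15512 were smaller than 0.1 in size. The median of the channel genes was 0.005, and -0.02 with quantile normalization and -0.0339 with median centring. That of all genes tested was 0.019, and likewise fell to -0.00526 with quantile normalization and -0.0197 with median centring. The median size regardless of sign was 0.0748 for the channel genes and 0.0504 for all genes. The 95% interval of the difference stayed within 0.5 on either side of 0 for 25 members and within 0.3 for 19. The plot of differences shows both groups of genes away from 0, a pair of sodium alpha genes to the right and a few calcium genes to the left.

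**Figure D1:**
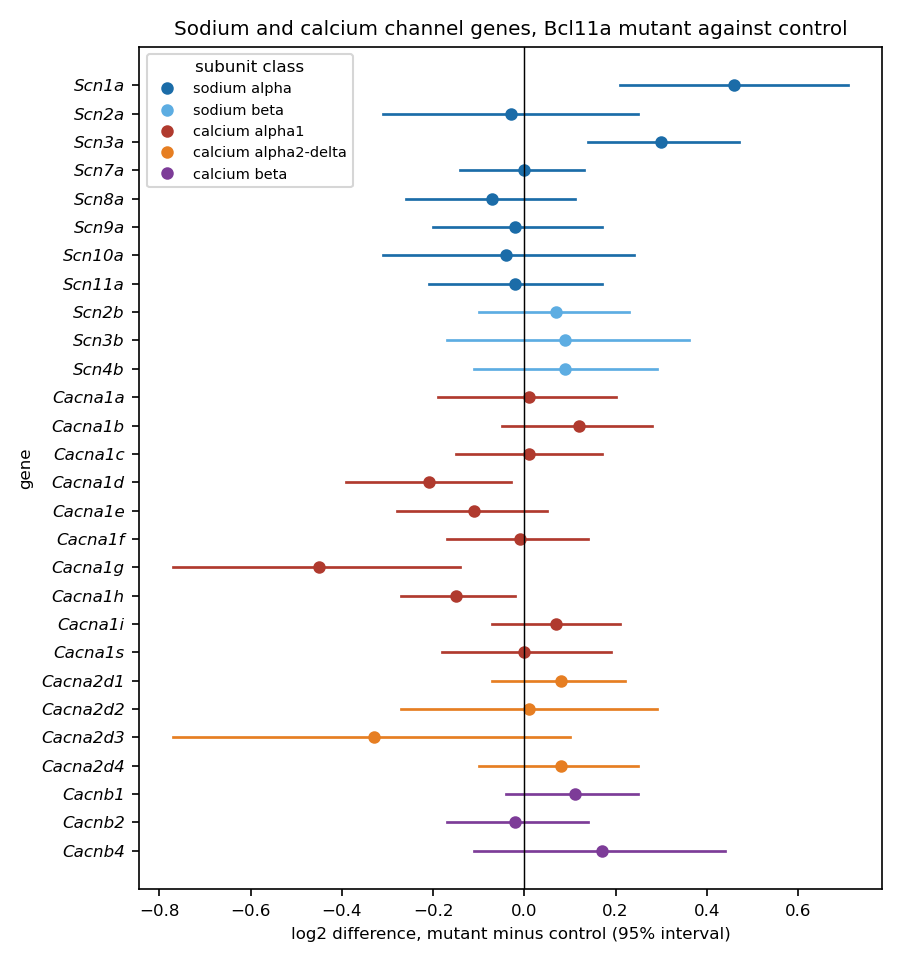
Log2 difference of mutant minus control (x axis) for each of the 28 channel genes (y axis), with points for the difference, lines for its 95% interval from limma and colours for the subunit class. Scn1a at 0.46 and Scn3a at 0.30 lie furthest to the right and Cacna1g at -0.45 furthest to the left, and the intervals of 5 genes do not reach 0.

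The arrays and the tissue were checked first. Correlations between arrays lay between 0.993 and 0.997, and a principal component analysis put 32.2% of the variance on its leading axis. On that axis the mutants scored 17.2, 1.11 and 5.94 and the controls -10.7, -4.08 and -9.5, in replicate order. The genotypes did not overlap there, and mutant replicate 1 lay furthest out. Bcl11a itself read 11.41, 11.49 and 11.34 in the mutants, against 12.20, 12.30 and 12.26 in the controls, a difference of -0.84 ± 0.06 (SE, limma adjusted p = 0.00201). The position of its probes relative to the deleted segment is not given here, and probes outside that segment would check nothing. Mean values of 15 pan-neuronal genes ran from 11.15 to 11.26 in the mutants and from 11.12 to 11.25 in the controls, and those of 10 radial glia genes from 11.38 to 11.44 in the mutants and from 11.41 to 11.51 in the controls. Marker lists of several cell types had array means that did not overlap between the genotypes. The mean of 6 intermediate progenitor genes ran from 10.92 to 10.97 in the mutants, against 10.76 to 10.83 in the controls. Only 1 of them passed, the proneural gene Neurod4, which rose by 0.66 (limma adjusted p = 0.0294). Eomes differed by 0.21, with every mutant above every control, and Gadd45g by -0.19, with every mutant below every control. Neurog2, Insm1 and Btg2 differed by 0.07, 0.08 and 0.01. The mean without Neurod4 was not computed. The erythroid mean ran from 7.03 to 7.11 in the mutants, against 6.43 to 6.51 in the controls, with 4 of 7 genes higher past the threshold. The microglia mean ran from 7.41 to 7.57 in the mutants, against 7.13 to 7.30 in the controls, and all 7 genes had positive differences. For pericytes and meninges the mean was 8.47 in mutant replicate 1, 7.75 and 7.67 in the other mutants, and 7.41 to 7.49 in the controls, with 8 of 9 genes positive. In that list Dcn, a connective tissue gene, read 10.49 in mutant replicate 1, 8.32 and 7.27 in the other mutants, and 6.58 to 6.62 in the controls, while Rgs5 and Kcnj8 differed by 0.05 and -0.02. No microglia, pericyte or meninges gene passed. The part of these cell types in the channel differences was not tested, and in whole tissue fewer cells of a type and less RNA per cell cannot be told apart.

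Among sodium channel alpha subunits, Scn1a had the largest difference. Scn1a, whose channel is best known from inhibitory interneurons of the postnatal brain, read 6.97, 7.02 and 7.29 in the mutants, against 6.68, 6.44 and 6.78 in the controls. Every mutant lay above every control. The difference was 0.46 ± 0.11 (SE), or 1.37-fold, with a limma adjusted p of 0.229. Scn3a, the alpha subunit typical of embryonic neurons, read 8.18, 8.20 and 8.29 in the mutants, against 7.89, 7.84 and 8.04 in the controls. Its groups did not overlap, and the difference was 0.30 ± 0.07 (SE, 1.23-fold, limma adjusted p = 0.219). Array weights give less weight to arrays that deviate more. With them both genes passed, at limma adjusted p = 0.0275 for Scn1a and 0.0249 for Scn3a. In that setting 217 of all 19938 genes passed, against 57 without weights. Control replicate 2, the lowest control for both genes, had the largest weight (3.02), and the weighted differences were 0.565 for Scn1a and 0.353 for Scn3a. The mean of 8 GABAergic interneuron genes, from 9.09 to 9.32 in the mutants and from 9.10 to 9.39 in the controls, overlapped between the genotypes. Within that list Sst and Npy differed by -0.50 and -0.60, with every mutant below every control, and the other genes had positive differences, and none of the 8 passed.

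A further probe set, assigned to both Scn3a and Scn1a and so left out of the main comparison, ran the same way. It read 8.76, 8.79 and 8.95 in the mutants, against 8.43, 8.46 and 8.52 in the controls. The groups did not overlap, and the difference was 0.36 ± 0.07 (SE) with an adjusted p of 0.139 in a limma fit that added such shared probe sets, chosen after the data were seen. Sodium channel alpha genes are close paralogs, and from these values the signal of this probe set cannot be split between Scn3a and Scn1a.

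**Figure D2:**
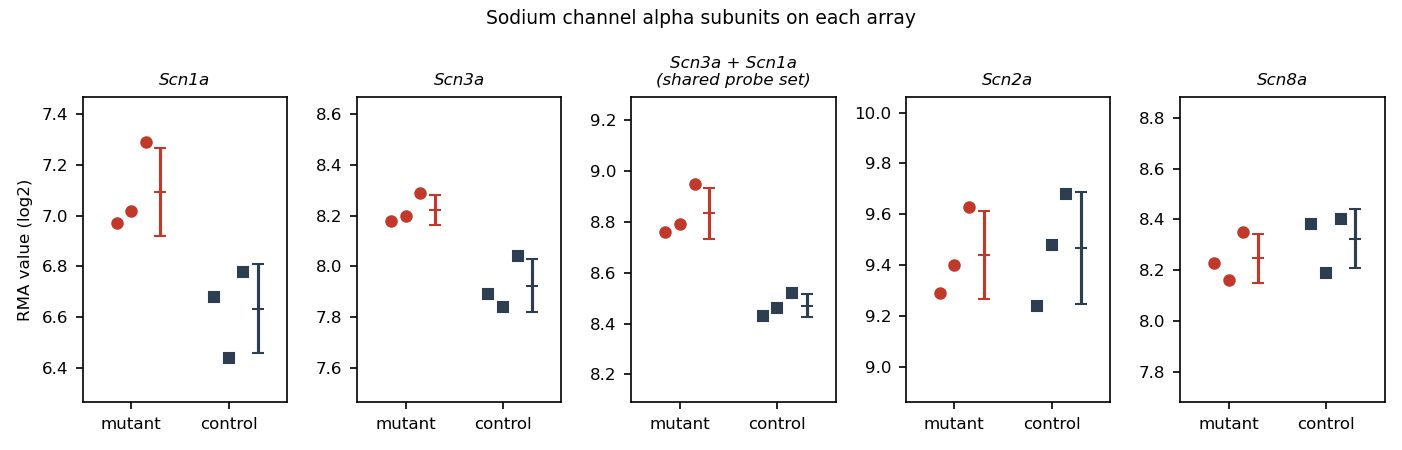
RMA values on the log2 scale (y axis, each panel spanning the same range of 1.2) for 4 sodium channel alpha genes and the probe set shared by Scn3a and Scn1a, with mutants at left and controls at right. Points are arrays and bars are the mean ± SD of 3 arrays, and the groups are apart for Scn1a, Scn3a and the shared probe set but overlap for Scn2a and Scn8a.

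Scn2a, the alpha subunit of early excitatory axons, read 9.29, 9.40 and 9.63 in the mutants, against 9.24, 9.48 and 9.68 in the controls, a difference of -0.03 ± 0.12 (SE). In both groups the spread between embryos was wider than the difference. The gene was covered by 14 probe sets of its own, of which 12 had positive differences, from -0.04 to 0.25 over all 14, and the groups overlapped for each of them. Mutant replicate 3 was the highest mutant in 14 of 14 probe sets and control replicate 3 the highest control in 13 of 14. On the same arrays the mean of the pan-neuronal genes was 11.26 in mutant replicate 3 and 11.25 in control replicate 3, the highest of each group, and its part in the spread of Scn2a was not tested.

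**Figure D3:**
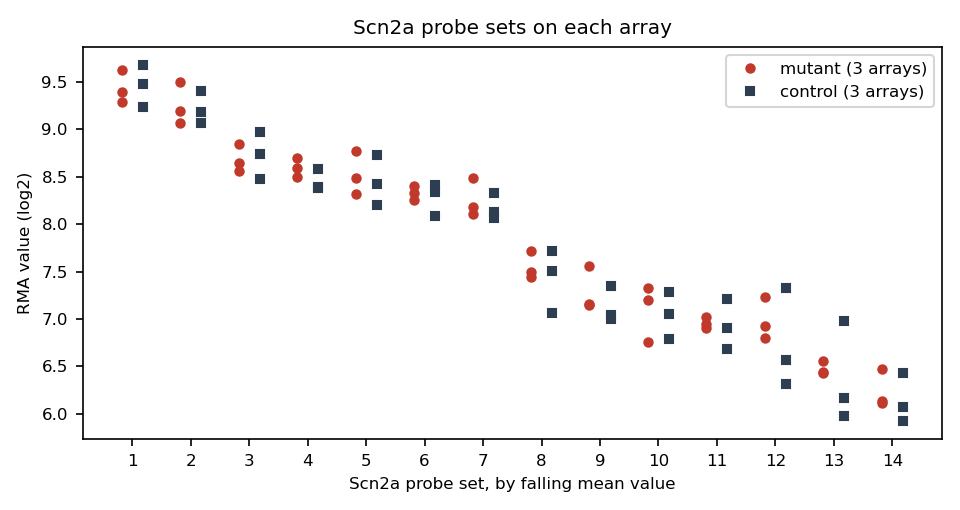
RMA values on the log2 scale (y axis) of the 14 Scn2a probe sets (x axis, by falling mean), with circles for the 3 mutant arrays to the left of squares for the 3 control arrays. The means of the probe sets fall between 9.45 and 6.19, and the 2 groups overlap in every one of them.

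The remaining alpha genes gave small differences. Scn8a, which takes over at initial segments and nodes of mature axons, read 8.23, 8.16 and 8.35 in the mutants, against 8.38, 8.19 and 8.40 in the controls (difference -0.07 ± 0.08, SE). Scn7a, Scn9a, Scn10a and Scn11a lay in the lowest 25% of the values of all genes, where RMA compresses differences, and differed by -0.0016, -0.02, -0.04 and -0.02. Scn9a, Scn10a and Scn11a are channels of peripheral sensory neurons, and Scn7a encodes an atypical, sodium-sensing relative. The mean of 5 marker genes of sensory neurons lay between 6.21 and 6.32 in the mutants and between 6.15 and 6.38 in the controls.

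Scn3a, Scn2a, Scn1a, Scn9a and Scn7a stand in a cluster on chromosome 2, in that order in the RefSeq table of GRCm38.p6, which was used for gene order only. Their differences are those given above. Between Scn2a and Scn1a lie the unrelated genes Csrnp3, Galnt3 and Ttc21b. Csrnp3, a nuclear protein gene, averaged 10.35 ± 0.18 in the mutants and 10.01 ± 0.17 in the controls (SD, n = 3 arrays each), a difference of 0.33 with a limma adjusted p of 0.557. Galnt3, a glycosyltransferase gene, and Ttc21b, a gene of ciliary transport, differed by -0.06 and 0.02.

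Sodium channel beta subunits, cell adhesion proteins that bind the alpha subunits, gave 3 positive differences, none past the threshold. Scn3b read 10.81, 11.03 and 11.15 in the mutants, against 10.67, 11.02 and 11.03 in the controls (difference 0.09 ± 0.12, SE), and its groups overlapped. Scn2b and Scn4b, which lie side by side on chromosome 9, differed by 0.07 and 0.09, and Scn4b was among the dimmest 25% of genes.

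Of the 10 calcium channel alpha1 genes, none passed and 5 had positive differences. T-type channels open near the resting potential. Cacna1g read 8.04, 8.23 and 8.12 in the mutants, against 8.28, 8.58 and 8.89 in the controls. The groups did not overlap, although mutant replicate 2 and control replicate 1 were close, and the controls were spread more widely (SD 0.10 in the mutants and 0.31 in the controls). The difference was -0.45 ± 0.14 (SE, limma adjusted p = 0.437), or 1.37-fold lower. Leaving out 1 array at a time moved it between -0.61 and -0.30, with -0.30 without control replicate 3 and -0.61 without control replicate 1. Cacna1h showed the opposite picture, a small difference between tight groups. It read 9.52, 9.50 and 9.50 in the mutants and 9.65, 9.66 and 9.65 in the controls, a difference of -0.15 ± 0.05 (SE, 1.11-fold, limma adjusted p = 0.632). Cacna1i, the third T-type gene, differed by 0.07 ± 0.06 (SE), with overlapping groups.

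L-type channels couple calcium entry to gene expression in neurons. Cacna1d, whose channel opens at more negative voltages than that of Cacna1c, read 8.03, 8.13 and 8.24 in the mutants, against 8.24, 8.36 and 8.43 in the controls. The highest mutant and the lowest control met, and the difference was -0.21 ± 0.08 (SE, 1.16-fold, limma adjusted p = 0.657). Cacna1c, the other L-type gene of brain neurons, differed by 0.01, with a 95% interval from -0.15 to 0.17. Cacna1f, known from photoreceptors, and Cacna1s, of skeletal muscle, differed by -0.01 and 0.0028. The mean of 8 striated muscle genes lay between 6.65 and 6.71 in the mutants and between 6.56 and 6.74 in the controls.

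The alpha1 genes of presynaptic and R-type channels did not pass either. Cacna1e (R type) read 9.74, 9.64 and 9.85 in the mutants, against 9.88, 9.78 and 9.91 in the controls (difference -0.11 ± 0.07, SE). Cacna1b, the N-type gene, whose channel has been tied to neuronal migration, read 9.45, 9.30 and 9.49 in the mutants, against 9.27, 9.24 and 9.38 in the controls (difference 0.12 ± 0.07, SE). Cacna1a (P/Q type) differed by 0.0064, with an interval from -0.19 to 0.20. The groups overlapped for all 3 genes.

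**Figure D4:**
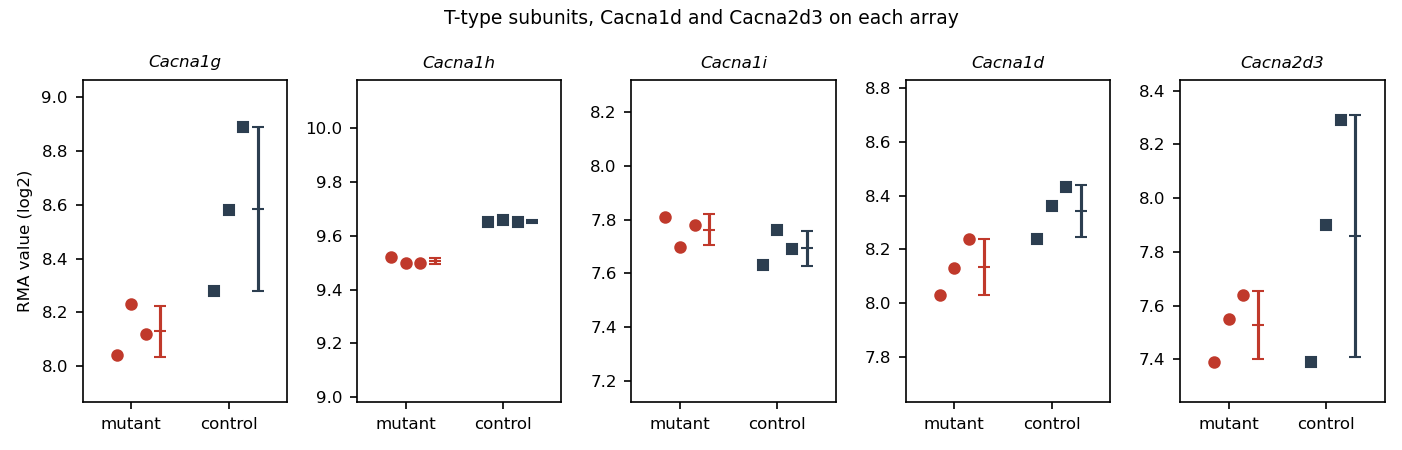
RMA values on the log2 scale (y axis, each panel spanning the same range of 1.2) for the T-type genes Cacna1g, Cacna1h and Cacna1i and for Cacna1d and Cacna2d3, with mutants at left and controls at right. Points are arrays and bars are the mean ± SD of 3 arrays. Cacna1g and Cacna1h do not overlap between the groups, and Cacna2d3 ranges from 7.39 to 8.29 within the controls alone.

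Alpha2-delta subunits sit on the outer face of the membrane, and Cacna2d1 and Cacna2d2 bind gabapentin. Cacna2d1 read 11.00, 11.06 and 11.04 in the mutants, against 11.04, 10.94 and 10.90 in the controls (difference 0.08 ± 0.06, SE), and its second probe set differed by 0.04. Cacna2d3 read 7.39, 7.55 and 7.64 in the mutants, against 7.39, 7.90 and 8.29 in the controls. Its difference of -0.33 ± 0.19 (SE, limma adjusted p = 0.999) had the widest standard error of the 28 genes, and the groups overlapped. It was -0.12 without control replicate 3 and -0.57 without control replicate 1. The mean of 6 Cajal-Retzius genes was likewise highest in control replicate 3, at 8.40, and otherwise ran from 7.93 to 8.14 in the mutants and from 8.07 to 8.18 in the controls. Of these 6 genes, 1 had a positive difference and none passed, and their part in Cacna1g and Cacna2d3 was not tested. Cacna2d2 and Cacna2d4 differed by 0.0099 and 0.08.

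Calcium channel beta subunits are cytoplasmic partners that set how many alpha1 subunits reach the membrane. Cacnb1 read 10.67, 10.55 and 10.49 in the mutants, against 10.44, 10.47 and 10.48 in the controls. Its groups were apart by a narrow margin, and the difference was 0.11 ± 0.06 (SE, 1.08-fold, limma adjusted p = 1). Cacnb4 read 9.51, 9.52 and 9.82 in the mutants, against 9.22, 9.48 and 9.64 in the controls (difference 0.17 ± 0.12, SE). Cacnb2 differed by -0.02, from a probe set that the annotation ties to a single cDNA.

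The genes around the channels held 1 change. Of 79 symbols listed for channel regulators, partners and calcium-dependent effectors, 72 were measured. The symbols include newer names of Fam155a and Fam155b, so the distinct genes are fewer than 79. Of the 72 measured, 1 rose and none fell, against 0.246% of all genes higher and 0.0401% lower. Gem, a small GTPase of the RGK family that binds calcium channel beta subunits and reduces high-voltage-activated calcium current, read 8.76, 8.72 and 8.66 in the mutants, against 8.10, 8.21 and 8.12 in the controls. Every mutant was above every control, and Gem rose by 0.57 ± 0.06 on the log2 scale (SE, 1.49-fold, limma adjusted p = 0.00958). Its adjusted p was 0.0572 without mutant replicate 1 and 0.069 without mutant replicate 2, with differences of 0.55 and 0.57. The exact two-sided permutation p for 3 against 3 arrays was 0.1 for Gem and Bcl11a, the smallest this design can give. Every gene whose groups do not overlap has this value, among them Cacna1g, Cacna1h, Cacnb1, Scn1a and Scn3a, so it does not set Gem and Bcl11a apart.

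The other RGK genes measured had positive differences that did not pass. Rem2, an RGK gene of neurons, read 8.57, 8.56 and 8.30 in the mutants, against 7.67, 8.16 and 7.88 in the controls (difference 0.57 ± 0.13, SE, limma adjusted p = 0.177). Rrad differed by 0.13 (adjusted p = 0.947), and the groups did not overlap for either gene. Stac, an adaptor that binds L-type channels, read 6.84, 6.83 and 6.65 in the mutants, against 7.18, 7.04 and 7.09 in the controls, a difference of -0.33 (adjusted p = 0.178). The 7 measured genes of the gamma subunit family, most of which serve AMPA receptors, had a median difference of 0.09. Cacng5 had the lowest p among them, with 7.89, 8.09 and 8.02 in the mutants, against 7.25, 7.66 and 7.57 in the controls (difference 0.50 ± 0.11, SE, adjusted p = 0.165). Cacng8 read 8.78, 8.76 and 8.85 in the mutants, against 8.89, 8.93 and 8.95 in the controls (difference -0.13 ± 0.06, SE, adjusted p = 0.879).

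**Figure D5:**
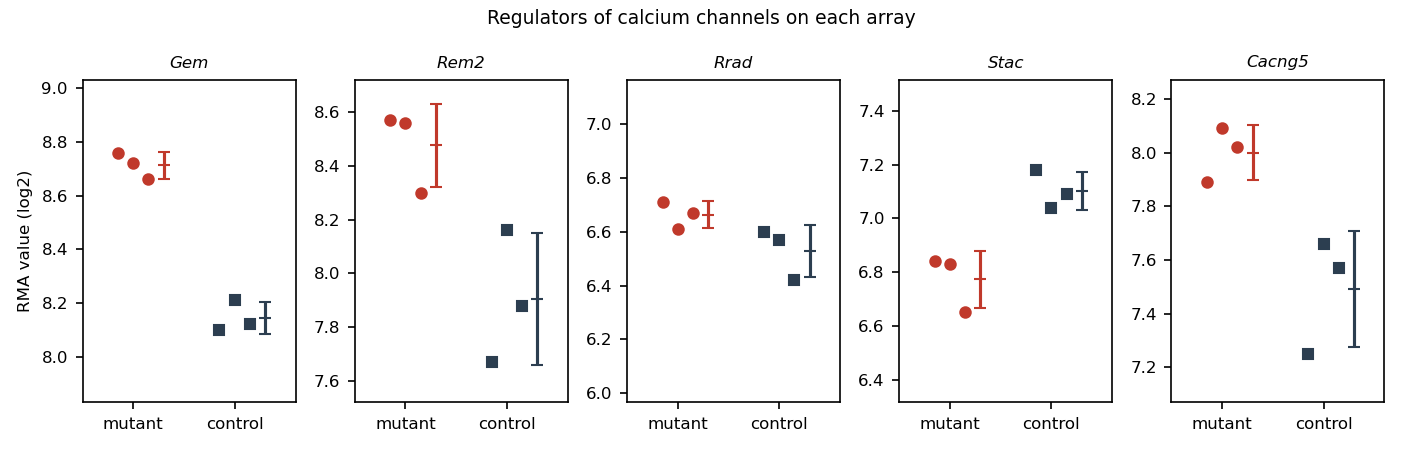
RMA values on the log2 scale (y axis, each panel spanning the same range of 1.2) for the RGK genes Gem, Rem2 and Rrad, the adaptor gene Stac and the gamma family gene Cacng5, with mutants at left and controls at right. Points are arrays and bars are the mean ± SD of 3 arrays, and Gem, at 8.66 to 8.76 in the mutants and 8.10 to 8.21 in the controls, was the 1 gene of these to pass the threshold.

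The other lists gave no call. Among FGF homologous factors, which bind the tail of sodium channel alpha subunits, Fgf11 differed by 0.25 (adjusted p = 0.409) and Fgf12 by 0.15 (adjusted p = 1). Among 8 genes listed for the axon and its initial segment, where sodium channels are anchored, the median was -0.06. Ank2, an ankyrin gene of the axon at large, differed by -0.23 (adjusted p = 0.638) and Nfasc by -0.12 (1). Ank3, the ankyrin gene of the initial segment, differed by -0.08, with overlapping groups. Among 9 presynaptic partners of calcium channels the median was 0.01, with the SNARE gene Snap25 at -0.20 (0.626) and Rims1 at 0.18 (0.906). Calmodulin and calcium-binding protein genes had a median of 0.05, with Cabp5 at 0.09 and Calm3 at 0.07. The channel turnover genes had a median of 0.04, with Mapk8ip2 at 0.05 and the ubiquitin ligase gene Nedd4l at 0.04. In the NALCN sodium leak channel complex, the accessory gene Fam155a differed by 0.27 (0.598) and Unc79 by 0.09 (1). As the mean of its probe sets, Fam155a differed by 0.0581. Of 10 other channel genes, most of them for sodium or calcium, the lysosomal channel gene Tpcn1 differed by 0.20 (0.706) and the epithelial sodium channel gene Scnn1a by 0.16 (0.73). Of 15 calcium-activated channels and calcium-dependent enzymes and factors, the median was -0.03, with the kinase gene Camk2d at 0.32 (0.354) and the potassium channel gene Kcnn2 at -0.22 (0.364).

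Promoters were read for the channel genes with the lowest p. RefSeq promoter sequences, 250 bases before to 50 after a transcript start, were matched for 22 of the 28 members, and of the 5 with the lowest p for Scn1a and Cacna1d. They are shown because they stand in front of a gene with higher and a gene with lower values in the mutants. Capitals mark the letters TGACCA on either strand, a short motif reported for Bcl11a, so TGGTCA is the same motif read from the opposite strand.
Scn1a (GRCm38.p6, chr2:66440788-66441087, minus strand): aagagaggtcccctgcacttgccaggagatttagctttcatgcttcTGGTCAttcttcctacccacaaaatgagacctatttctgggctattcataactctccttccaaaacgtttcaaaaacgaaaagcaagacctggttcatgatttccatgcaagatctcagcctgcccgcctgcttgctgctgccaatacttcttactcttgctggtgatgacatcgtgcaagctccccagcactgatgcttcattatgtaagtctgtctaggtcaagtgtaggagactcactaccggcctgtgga
Cacna1d, upstream start (GRCm38.p6, chr14:30491107-30491406, minus strand): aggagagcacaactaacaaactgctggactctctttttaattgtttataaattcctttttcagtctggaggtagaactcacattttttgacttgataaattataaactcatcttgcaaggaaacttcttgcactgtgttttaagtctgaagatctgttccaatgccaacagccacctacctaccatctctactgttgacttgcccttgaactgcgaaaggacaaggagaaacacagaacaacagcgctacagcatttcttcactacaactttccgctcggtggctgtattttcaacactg
Cacna1d, downstream start (GRCm38.p6, chr14:30353437-30353736, minus strand): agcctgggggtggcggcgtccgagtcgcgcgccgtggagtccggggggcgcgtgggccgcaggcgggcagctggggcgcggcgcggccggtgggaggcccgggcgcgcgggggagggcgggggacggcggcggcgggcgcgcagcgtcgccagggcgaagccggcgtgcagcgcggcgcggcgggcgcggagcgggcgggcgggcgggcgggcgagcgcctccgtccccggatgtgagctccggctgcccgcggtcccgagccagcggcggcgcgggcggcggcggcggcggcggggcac
The Scn1a window held the motif once, on the strand opposite to the gene, beginning 204 bases before the start. Neither Cacna1d window held these letters. The Cacna1d windows differed in make-up, with 40.3% G and C and 4 CG pairs at the upstream start, and 87.3% and 63 at the downstream start. The motif was held by 13.6% of all 32851 RefSeq promoter windows, and of the 31 windows of channel genes 3 did. A match describes these letters and is not a binding site.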

How the data were processed

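RNA from 3 mutant and 3 control neocortices was labelled with biotin and hybridised to 1 array per embryo, per the labels' protocols. The authors deposited log2 values made with Affymetrix Expression Console and RMA, per the submitters' processing notes, which give no versions. RMA corrects background, quantile-normalizes and summarises probe sets, compresses differences near background and would hide a shift common to most genes. Array medians over the genes tested lay between 7.89 and 7.99. Arrays have no read depth, so precision is limited by their number. GEO's platform annotation gave the gene names. Probe sets of 1 gene were kept, at the highest mean over all arrays where a gene had several. Mutant and control arrays were compared by limma 3.58.1 (R 4.3.3; lmFit, eBayes, no covariate), with Benjamini-Hochberg adjustment over all genes, and 95% intervals came from the moderated standard errors. All adjusted p-values are two-sided. On simulated data with 100 changes of each size, the fit recovered 68% of changes of 0.5 and 97% of changes of 1 on the log2 scale. It made 9 false calls. Changes under 0.5, the size of every channel gene difference, were not simulated. Genes were named by a fixed rule, in which every channel gene counts, each regulator list gives the genes past the threshold and the 2 with the lowest p, and Bcl11a is always named. Stac, Rrad, Ank3, Dcn, Rgs5, Kcnj8, Sst, Npy, Neurod4, Eomes, Gadd45g, Neurog2, Insm1, Btg2, Csrnp3, Galnt3 and Ttc21b were named after their values were seen. The members and lists were chosen with earlier results of these data known. Levels were not compared between genes. The alternatives were 2 other scalings, array weights, a replicate block, a filter on dim genes, 2 treatments of several probe sets, another variance model, a looser threshold and leaving out each array.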

Additional observations from a re-analysis of the deposited data

Results flagged for a closer look

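The probe set shared by Scn3a and Scn1a was outside the main comparison because it names both genes, and its signal was above the controls on each mutant array. It averaged 8.83 ± 0.10 in the mutants and 8.47 ± 0.05 in the controls (SD, n = 3 arrays each), which is a difference of 0.36 on the log2 scale. It did not pass in limma with the shared probe sets added (adjusted p = 0.139), a fit chosen after the data were seen, in which 41 genes or probe sets passed in place of 57 and Scn1a and Scn3a had adjusted p of 0.288 and 0.256. The other shared probe sets of channel genes, of Scn9a and Scn3a and of Scn2a, Scn9a and Scn3a, differed by 0.11 and 0.13 with overlapping groups. Groups of 3 arrays are too small for a test of single outlying arrays.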

How the results depend on the processing

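No channel gene passed in any of the other settings except with array weights, where 2 did (Scn1a and Scn3a). The number of all genes past the threshold was 57, and 217 with array weights, 87 with an intensity trend and robust variances, 107 at an adjusted p under 0.1, and 20 to 50 when 1 array was left out. Channel genes whose groups did not overlap numbered 5, and 7 to 8 with 1 array left out, where fewer arrays overlap more rarely by construction. The regulator lists held 1 gene past the threshold, 2 with array weights (Gem and Camk2d), and 0 to 1 with 1 array left out. The median of all genes shifted by less than 0.1 under every scaling. Under a replicate block 34 genes passed, of which 29 were among the 57, no channel gene did, and Gem passed at 0.0481. Over all genes, deviations of arrays that share a number correlated at 0.03, -0.14 and 0.08, and the embryos were not treated as pairs. These correlations do not cover a likeness confined to some genes. Scn2a and the pan-neuronal mean were highest in replicate 3 of both groups, and whether arrays of a number belong together was not tested for them.

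Of 415 results of channel genes in other settings, 369 kept direction and call, 2 passed newly and 44 turned in sign. The turned results belonged to 14 genes that did not pass, none with a difference of 0.1 or more. Median centring moved all differences down by the same amount, so positive differences smaller than that amount turned by construction. For the other settings the cause was not tested. With quantile normalization Cacna1a, Cacna1c, Cacna1s and Cacna2d2 were at -0.0192, -0.0153, -0.0208 and -0.0249, and with median centring at -0.0321, -0.0269, -0.0356 and -0.0286. With array weights Cacna1c, Cacna1s, Cacna2d2 and Scn7a were at -0.00875, -0.00223, -0.00252 and 0.0384. Scn2a was at 0.08 as the mean of its probe sets. With 1 array left out the ranges were -0.0651 to 0.093 for Cacna1a, -0.019 to 0.0588 for Cacna1c, -0.0677 to 0.0319 for Cacna1f, -0.0664 to 0.0811 for Cacna1s, -0.0815 to 0.134 for Cacna2d2, -0.000953 to 0.124 for Cacna2d4, -0.0733 to 0.0269 for Cacnb2, -0.0704 to 0.274 for Fgf12 of the regulator lists, -0.146 to 0.0582 for Scn10a, -0.0928 to 0.0603 for Scn11a, -0.14 to 0.0807 for Scn2a, -0.0215 to 0.188 for Scn3b, -0.00847 to 0.15 for Scn4b, -0.0279 to 0.026 for Scn7a and -0.0764 to 0.0691 for Scn9a.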
